A study of Mus musculus with 35 samples.

Results

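The 10 genes described here encode the transcription factors that build and maintain the epidermis: Trp63, the grainyhead-like genes Grhl1, Grhl2 and Grhl3, the Krüppel-like genes Klf4 and Klf5, Ovol1, Gata3, Zfp750 and Cebpa. They were taken by symbol from 2 tables of RNA-seq counts, and all 10 were found among the 22830 symbols of each. Where a symbol had several RefSeq transcripts in the first table, the row with the most counts was kept, which touched Trp63 (8 rows) and Grhl1 (2 rows) only.

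The counts come from 35 mouse skin wounds. Col5a1CKO mice carry the Col1a2CreERT driver and 2 floxed copies of Col5a1 (Col5a1 fl/fl), so that tamoxifen deletes the gene, which encodes a chain of type V collagen, in fibroblasts that express Col1a2 and not in keratinocytes. WT mice carry the same floxed alleles and no Cre, and both genotypes received tamoxifen and a full-thickness excision of the back skin. The first table holds 23 wounds, with 7 WT and 7 Col5a1CKO at day 14, 3 Col5a1CKO at day 14 that received injected WT fibroblasts, and 3 WT and 3 Col5a1CKO at day 19. The second table holds 12 wounds, with 4 WT given vehicle at day 14, 4 Col5a1CKO given vehicle at day 14 and 4 Col5a1CKO given cilengitide. The labels of the cilengitide wounds name no day, and the study's text places them at day 14. Cilengitide inhibits the integrins αvβ3 and αvβ5. The mice were young adults of both sexes on a C57BL/6 background. The study's methods call its replicates biologically separate, and the labels do not name the animal behind each wound. Sample titles of the second table carry a number for each wound, whose meaning is not stated.

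The epidermis is renewed from a basal layer of keratinocytes attached to the basement membrane, whose daughter cells move outward, stop dividing and form the barrier. Trp63 encodes p63, which sets the identity of stratified epithelia and is made in the basal layer from an upstream and an internal promoter. The grainyhead-like factors act on junction and barrier genes, and Klf4, Zfp750, Ovol1 and Cebpa are known for driving or permitting the exit from the basal state. Several of these genes are also used outside the epidermis, Gata3 in hair follicles, T cells, innate lymphoid cells and mammary luminal cells, and Klf4 and Cebpa in myeloid and mesenchymal cells. Excision removes the epidermis together with the dermis, and the epithelium then regrows from the wound edges.

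Upstream sequences of these genes are shown because several of the factors have known DNA motifs that other members could carry, and because the 10 transcripts went up and down together across wounds. The 250 bases before each annotated start were read from NCBI37, the build of the counts, for 13 starts of the 10 genes and for 30689 starts of protein-coding genes in all, and both strands were searched. In the stretch of Klf4, 90 bases on the minus strand at chr4:55545498-55545587, printed 5′ to 3′ as the densest example, capitals mark 7 overlapping matches to the KLF-type letters CCNCNCCC.
Klf4: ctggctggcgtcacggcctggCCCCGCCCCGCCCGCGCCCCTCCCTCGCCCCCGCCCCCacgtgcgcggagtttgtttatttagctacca
KLF-type letters are common, since 50.7% of all starts and 10 of the 13 starts of these genes had them, and the bases before the 13 starts were 61.6% G and C in the median against 54.4% for all starts. The GATA-type letters AGATAA (9.14% of all starts), the C/EBP-type letters TTGCNNAA (8.88%) and the p53-family site (6.29%) were found before 0 of the 13 starts. A match describes letters in this window, and no binding was measured.

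On NCBI37 the genes, as annotated in GENCODE vM1, lie at chr16:25683849-25892188 (Trp63), chr12:25257152-25302256 (Grhl1), chr15:37162791-37293324 (Grhl2), chr4:135097803-135129545 (Grhl3), chr4:55540013-55545347 (Klf4) and chr14:99697910-99712624 (Klf5). Ovol1 lies at chr19:5549137-5560575, Gata3 at chr2:9778705-9811661, Zfp750 at chr11:121372292-121380647 and Cebpa at chr7:35904312-35906945. Exons of Grhl2 overlap Gm16136 on the opposite strand, and those of Gata3 overlap Gm13256 on the opposite and 9230102O04Rik on the same strand. All annotated exons of each gene were compared, not only those of the counted transcript. The strand setting of the counting is not given in the sources used here, so reads of these neighbours may be part of the Grhl2 and Gata3 counts.

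Each wound had 15043531 to 35700337 counts in the first table, and the second was deeper, with 51211600 to 68266760. How much GC-rich genes took relative to GC-poor ones parted the first table's libraries in 2 sets that lay 1.54 apart in log2 units. Day 14 replicates a to d of WT and a to e of Col5a1CKO make up the lower set, and all others the upper set. Among WT wounds of day 14 the factors were higher in the upper set, with Klf4 at 1176 to 1458 CPM (counts scaled to library size, with TMM factors) in replicates e to g and 170 to 454 CPM in a to d. Ddx3y was read in the day 14 WT wounds of the upper set and Xist in its Col5a1CKO wounds of that day, where genotype and sex therefore cannot be told apart. Levels of these markers differed between other groups too. Xist was at most 1.53 CPM in the vehicle Col5a1CKO wounds against 0.874 to 169 CPM in vehicle WT and 0.855 to 187 CPM in cilengitide wounds, while Ddx3y ran from 0 to 189 CPM in those vehicle Col5a1CKO wounds. At day 19 Ddx3y was at most 0.291 CPM with Col5a1CKO and reached 42.6 CPM in WT. The part of sex in these differences was not tested. For the 3 day 19 Col5a1CKO wounds a label names a fibroblast treatment, while the sample titles place it at day 14, and the titles were followed. Col5a1 was at 347 to 2386 CPM in WT wounds against 170 to 663 CPM in Col5a1CKO wounds of day 14 (log2 fold change -1.43 ± 0.49 SE, edgeR quasi-likelihood test, Benjamini-Hochberg adjusted p = 0.0756).

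Levels per transcript length can be compared between genes in the first table, which gives lengths. In WT wounds of day 14 Klf4 had the highest median, 107 RPKM (reads per kilobase of transcript, scaled to the counts of all transcript rows of a library, without TMM, n = 7), and Grhl2 the lowest, 3.61 RPKM. Grhl1 (39.2 RPKM), Cebpa (33.6) and Trp63 (31.3) followed Klf4, and their ranges over wounds overlapped, as did those of Zfp750 (18.9), Ovol1 (18.7), Grhl3 (15.9), Klf5 (15.7) and Gata3 (8.89). Klf4 also had the highest and Grhl2 the lowest median in WT wounds of day 19, with 90.1 and 4.79 RPKM (n = 3), and in Col5a1CKO wounds with fibroblasts, with 90.1 and 1.76 RPKM (n = 3). In Col5a1CKO wounds of day 14 the order differed at the bottom, where Ovol1 (0.372 RPKM) and Grhl2 (0.389) had the lowest medians and Klf4 (18.4) and Cebpa (11.4) stood above all others. The 8 factors below them had medians of 0.372 to 1.78 RPKM there.

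**Figure D1:**
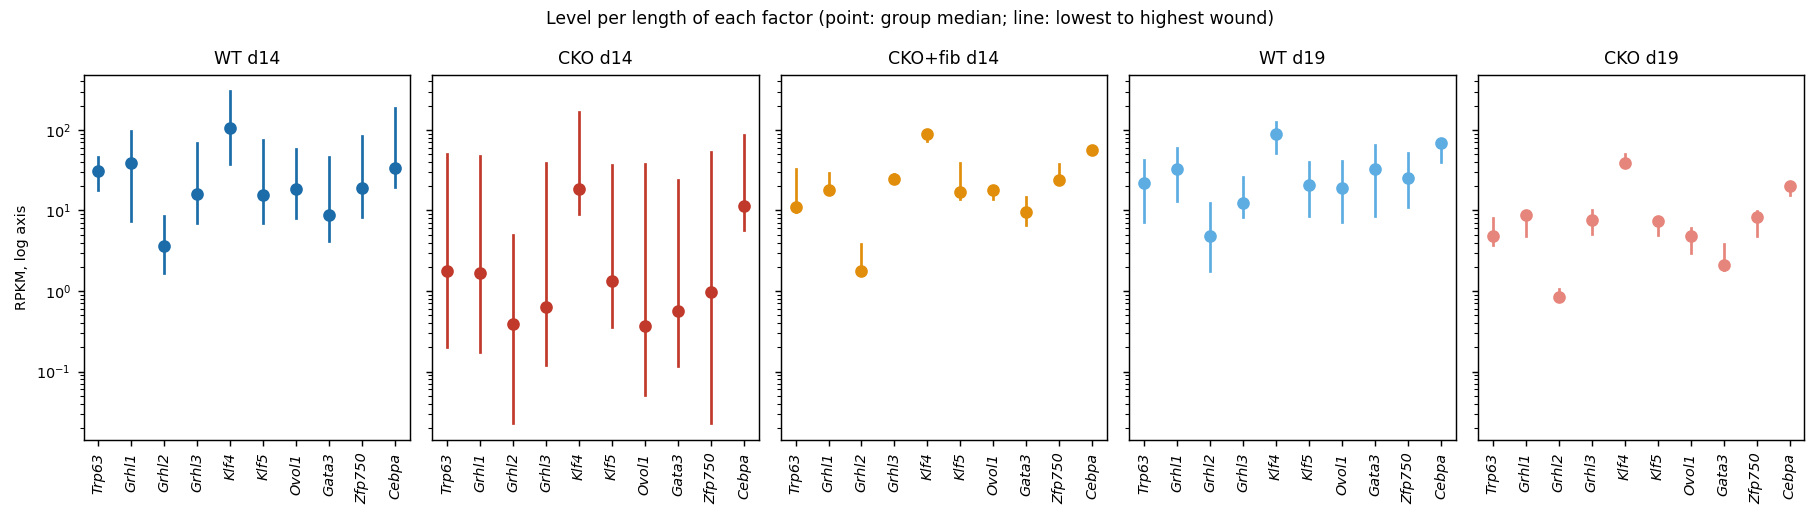
RPKM of the 10 factors (log axis) in the 5 groups of the first table; points are group medians and lines run from the lowest to the highest wound. Klf4 is highest and Grhl2 lowest in WT wounds, and in Col5a1CKO wounds of day 14 (CKO d14) only Klf4 and Cebpa have medians above 10 RPKM.

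At day 14 the Col5a1CKO wounds were of unlike kinds. All 10 factors had lower medians in Col5a1CKO than in WT wounds, but replicates d and g lay within the WT range for every factor, while replicates a, b, c, e and f lay below it for all but Gata3 in replicate f. That range pools both library sets. Replicate g, an upper-set library, lay below all 3 WT wounds of its set for every factor, as for Klf4 at 704 against 1176 to 1458 CPM. The fitted log2 fold changes ran from -1.49 for Trp63 (SE 0.95, adjusted p = 0.326) to -2.32 for Klf5 (SE 1.06, adjusted p = 0.172), with a median of -1.97, and 0 of the 10 passed an adjusted p of 0.05 and 2-fold (edgeR quasi-likelihood test, 7 against 7), against 2.71% of all genes tested called lower. At an unadjusted p under 0.05 there were 3, Klf5, Cebpa and Klf4 (6.79% of all genes were lower at that limit and 2-fold), and DESeq2 called 2 (4.85%). Read counts in bulk tissue cannot tell fewer keratinocytes from less RNA per keratinocyte.

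Trp63 had a lowest, median and highest level of 124, 221 and 331 CPM in WT and of 1.43, 11.9 and 308 CPM in Col5a1CKO wounds of day 14. Col5a1CKO replicate d was thus above 6 of the 7 WT wounds. Among its RefSeq rows, the 3 short ones of 1716 to 2379 bp held medians of 31.6% to 32.8% of the counts of the kept row in upper-set wounds and 17.2% to 18.1% in lower-set wounds, among wounds with at least 100 counts.

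Of the grainyhead-like genes, Grhl1, which acts on desmosomal cadherin genes, had 37.9, 190 and 530 CPM in WT and 0.918, 7.46 and 228 CPM in Col5a1CKO wounds. Grhl2, a regulator of epithelial junction genes, had 12.6, 24.9 and 64.1 CPM in WT and 0.172, 2.63 and 32.9 CPM in Col5a1CKO wounds. Grhl3, which is required for the skin barrier, had 27.6, 66.5 and 293 CPM in WT and 0.516, 2.55 and 150 CPM in Col5a1CKO wounds. For all 3 the groups overlapped only through replicates d and g.

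Klf4, a factor of the suprabasal layers, had 170, 454 and 1458 CPM in WT and 37.5, 80.6 and 704 CPM in Col5a1CKO wounds. Cebpa, which acts with Cebpb in keratinocytes that leave the cell cycle, had 76.6, 125 and 776 CPM in WT and 21.9, 42.6 and 316 CPM in Col5a1CKO wounds. Neither went below 21.9 CPM in any wound. Klf5, a proliferation-linked relative of Klf4, had 18.2, 37.7 and 199 CPM in WT and 0.875, 3.15 and 88.1 CPM in Col5a1CKO wounds.

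Ovol1, a zinc finger repressor that limits progenitor growth, had 34.6, 75.8 and 268 CPM in WT and 0.23, 1.53 and 151.1 CPM in Col5a1CKO wounds. Zfp750, a p63 target of terminal differentiation, had 39.9, 85.5 and 439 CPM in WT and 0.115, 3.98 and 236 CPM in Col5a1CKO wounds. Gata3 had 19.4, 39.9 and 237 CPM in WT and 0.574, 2.5 and 106 CPM in Col5a1CKO wounds. Ovol1, Zfp750 and Grhl2 were the members with the lowest readings, each under 0.5 CPM in 1 or more Col5a1CKO wounds.

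**Figure D2:**
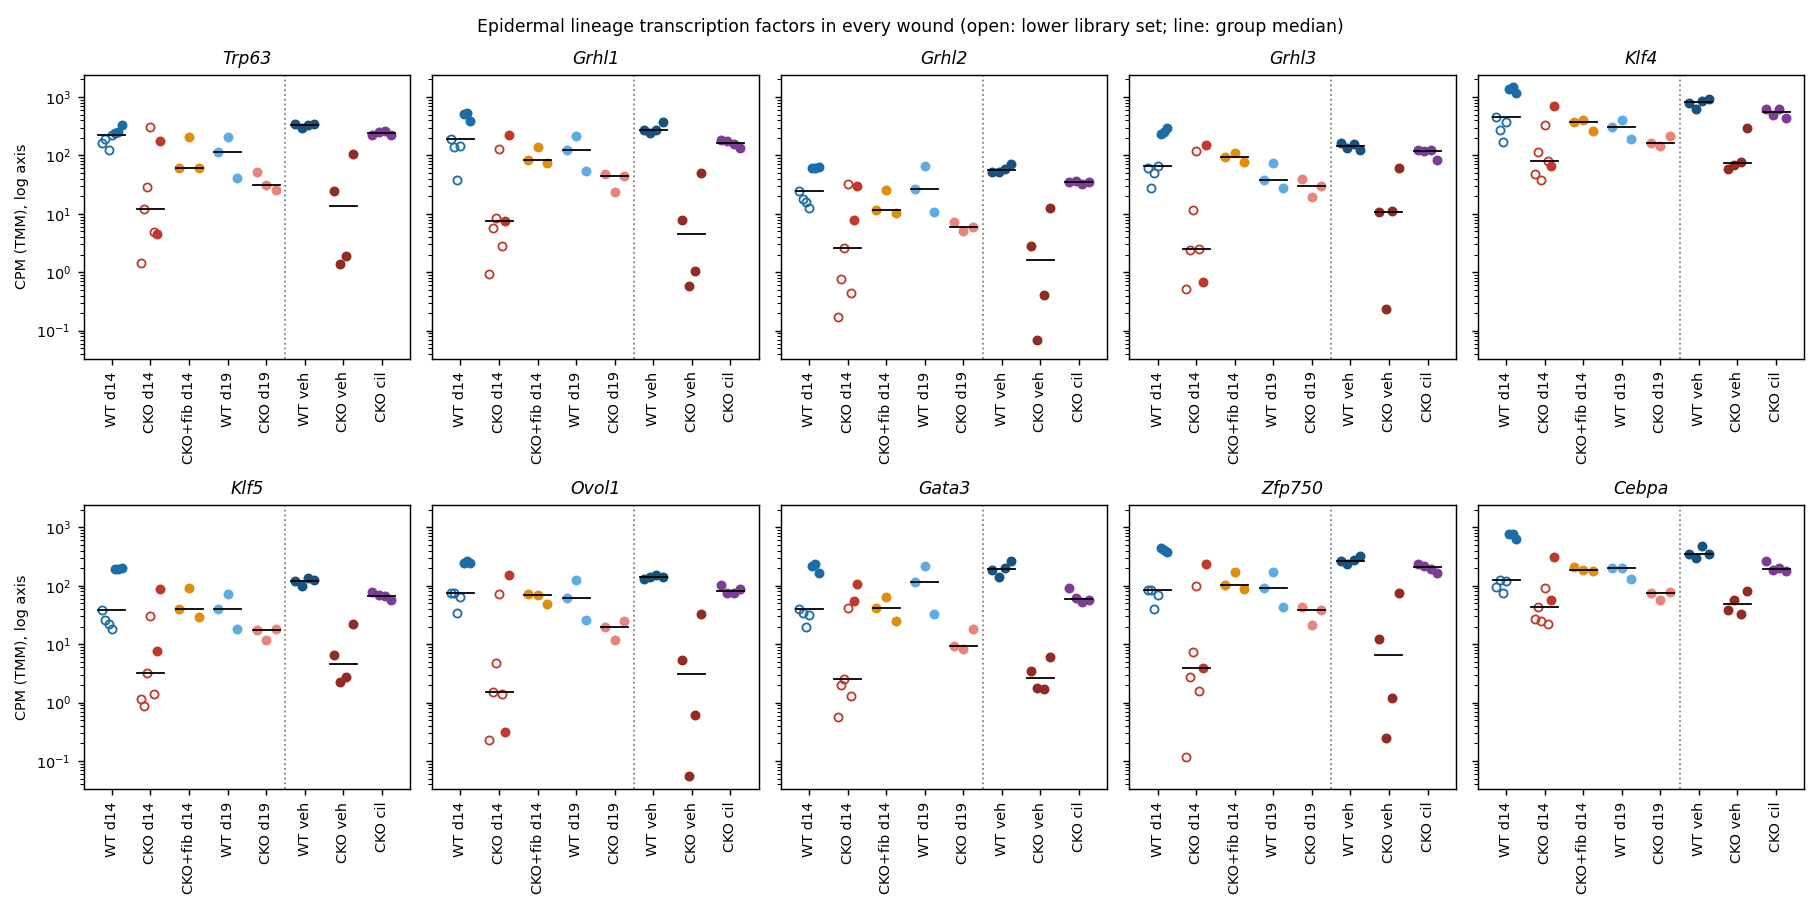
TMM-scaled CPM (log axis) of the 10 factors, 1 point per wound, in the 5 groups of the first table and, right of the dotted line, the 3 groups of the second; lines are group medians and open points are lower-set libraries. Col5a1CKO wounds of day 14 and with vehicle spread widely, with vehicle from 0.0552 to 33.5 CPM for Ovol1, while all 4 cilengitide wounds lie close together, at 226 to 262 CPM for Trp63.

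The levels moved with keratinocyte markers. The summed level of 6 keratinocyte markers (Krt5, Krt14, Krt1, Krt10, Cdh1 and Dsp) was 28910 and 62060 CPM in Col5a1CKO replicates d and g, 40.2 to 2075 CPM in the 5 others, and 32070 to 159600 CPM in WT wounds. Of leukocyte markers, 5 of the 6 tested were called higher in Col5a1CKO wounds (5.57% of all genes tested). They summed to 1718 to 5724 CPM against 424 to 2984 CPM in WT. Replicates d and g had 2103 and 1731 CPM, and replicate e, with 270 CPM of keratinocyte markers, had 1718 CPM. WT wounds ran from 2178 to 2984 CPM in the lower library set and from 424 to 695 CPM in the upper. Fibroblast markers summed to 19310 to 64930 CPM in Col5a1CKO wounds against 4735 to 48140 CPM in WT. Endothelial markers summed to 81.0 to 282 CPM in WT wounds against 254 to 624 CPM in Col5a1CKO wounds, adipocyte markers to 651 to 1514 and 333 to 1168 CPM, and T and innate lymphoid markers, of which 3 of 7 were called higher and 3 of 7 had negative log2 fold changes, to 118 to 232 and 186 to 625 CPM. Their part in the difference of the factors was not tested. Within the lower library set the 10 log2 fold changes had a median of -1.52 (4 WT against 5 Col5a1CKO), and within the upper set, with 3 WT against 2 Col5a1CKO wounds, of -1.68. In either set 0 members were called, where 2.92% (lower set) and 0.412% (upper set) of all genes were called lower.

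Col5a1CKO replicate f of day 14 had another mixture of factors. Gata3 was at 54.2 CPM, above the 4 WT wounds of the lower library set (19.4 to 39.9 CPM). It was below the 3 WT wounds of the upper set (164 to 237 CPM), to which replicate f belongs. Grhl2 and Klf5 were at 7.92 and 7.58 CPM. Trp63 was at 4.57, Ovol1 at 0.311 and Grhl3 at 0.684 CPM in the same wound, so Gata3 exceeded Trp63 by 3.57 on the log2 scale, against -3.52 to -0.72 in the other 6 Col5a1CKO wounds. This wound also had 292 CPM of Krt8, 221 of Krt18 and 400 of Krt19, keratins of simple epithelia, against at most 23.3, 26.9 and 31 CPM in any other wound of the table. Foxa1 (52.7 CPM) and Prlr (116 CPM), known from mammary luminal cells, were at most 4.07 and 26.6 CPM elsewhere. These genes were picked after their values were seen, and their part in the Gata3 level was not tested. Without this wound 0 members were called at day 14 (1.6% of all genes were called lower) and the median log2 fold change was -1.85.

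At day 19 all 10 factors again had lower medians in Col5a1CKO than in WT wounds, and the groups of 3 were separate for 5 of them, Grhl1, Grhl2, Ovol1, Gata3 and Cebpa (18.8% of genes were lower in every wound). Gata3 had the largest difference. It was at 116, 221 and 33.0 CPM in the WT and 9.46, 8.12 and 17.8 CPM in the Col5a1CKO wounds, a log2 fold change of -3.29 (SE 0.71, adjusted p = 0.116 from edgeR). WT replicate c was the lowest WT wound for all 10 factors and lay nearest to the Col5a1CKO wounds. None of the 10 passed the threshold (edgeR quasi-likelihood test, 3 against 3), and 0% of all genes tested were called lower. At an unadjusted p under 0.05 there were 8 (6.23% of all genes were lower at that limit and 2-fold), and DESeq2 called 5 (4.13%). Without WT replicate c edgeR called 6 (3.87%), and without any other single wound 0 (0%).

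Among the grainyhead-like genes at day 19, Grhl2 was at 26.3, 64.7 and 10.6 CPM in WT and 7.29, 5.09 and 5.91 CPM in Col5a1CKO wounds, so the groups did not overlap. Grhl1 was at 125, 216 and 55.0 CPM against 47.5, 23.3 and 44.0 CPM, likewise separate. Grhl3 was at 38.2, 75.2 and 28.1 CPM against 39.0, 19.7 and 29.9 CPM, which overlapped, and had the smallest difference of the 10, -0.58 on the log2 scale (SE 0.40, adjusted p = 0.386). Whether Grhl3 differed less than its relatives was not tested.

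Trp63 overlapped at day 19, with 113, 208 and 40.4 CPM in WT and 52.0, 31.4 and 25.1 CPM in Col5a1CKO wounds. Cebpa, at 203, 200 and 129 CPM against 74.8, 56.5 and 78.4 CPM, was the most even of the separated genes, with a log2 fold change of -1.27 (SE 0.23, adjusted p = 0.11). Klf4 was at 304, 405 and 191 CPM against 166, 146 and 218 CPM, and Klf5 at 40.1, 73.0 and 17.9 CPM against 17.8, 11.6 and 18.1 CPM. Both Krüppel-like genes overlapped through WT replicate c. Ovol1 was at 61.7, 124 and 25.5 CPM against 19.3, 11.7 and 24.9 CPM, separate by less than 1 CPM, and Zfp750 at 91.0, 173 and 43.9 CPM against 44.1, 21.6 and 38.6 CPM.

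Relative to Trp63 of the same wound, Gata3 was the 1 factor of the other 9 that was separate between genotypes at day 19, with a log2 ratio of -0.29 to 0.08 in WT wounds against -2.46 to -0.50 with Col5a1CKO. The share of all genes with a separate ratio to Trp63 was not computed. Hair follicle markers also differed by genotype. Their 8 genes, among them Krt35, Krt71 and Lhx2, summed to 213 to 3698 CPM in WT wounds of day 19. In Col5a1CKO wounds of that day they summed to 21.8 to 27.4 CPM. Of these genes, 8 of 8 had negative log2 fold changes and 0 were called. Col5a1CKO replicate c had the most Gata3 of its group (17.8 CPM) and the lowest hair follicle sum (21.8 CPM). Of 7 T and innate lymphoid markers 6 had negative log2 fold changes (median -0.84), while Thy1, which fibroblasts also express, made up most of their sum of 180 to 409 CPM in WT and 338 to 449 CPM with Col5a1CKO. The part of either in the Gata3 difference was not tested. Keratinocyte markers summed to 14440 to 25730 CPM in WT wounds against 6855 to 21530 CPM in Col5a1CKO wounds.

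A direct test of whether the genotype difference changed from day 14 to day 19 called 0 of the 10 factors and 0% of all genes tested (edgeR quasi-likelihood test, interaction in a fit of both days). At an unadjusted p under 0.05 there were 0 (1.76% of all genes higher and 2.74% lower), and DESeq2 called 0 (0.123% and 0.0973%). The largest differences of the log2 fold changes, day 19 minus day 14, were -1.55 for Gata3 (SE 1.74) and 1.18 for Klf4 (SE 1.14). Every day 19 library belongs to the upper set, while the day 14 libraries are in both.

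Injection of WT fibroblasts into Col5a1CKO wounds asked whether cells with an intact Col5a1 change the wound. In the 3 wounds that received them every factor was above its level in Col5a1CKO replicates a, b, c and e, and, for all but Gata3, in replicate f. Trp63 was at 61.4, 209 and 62.0 CPM, Ovol1 at 71.6, 70.1 and 48.1 CPM and Gata3 at 41.5, 63.9 and 24.9 CPM. None of the 3 was among the wounds with almost no Ovol1, of which the 7 Col5a1CKO wounds without fibroblasts had 5, at 0.23 to 4.68 CPM. Grhl1 was at 83.5, 140 and 74.9 CPM, Grhl2 at 11.7, 25.8 and 10.4 CPM and Grhl3 at 93.0, 108 and 76.9 CPM. Klf4 was at 372, 404 and 262 CPM, Klf5 at 40.2, 92.7 and 28.7 CPM, Zfp750 at 105, 170 and 86.9 CPM and Cebpa at 213, 189 and 178 CPM. Col5a1CKO replicate g, without fibroblasts, was above the lowest of the 3 for every factor, and replicate d for all but Cebpa.

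Against Col5a1CKO wounds without fibroblasts the fitted log2 fold changes were all positive, from 0.52 for Trp63 (SE 1.45, adjusted p = 0.881) to 1.5 for Klf5 (SE 1.32, adjusted p = 0.609). By edgeR's quasi-likelihood test (3 against 7) 0 of the 10 passed, as did 0% of all genes tested in this direction. There were 0 at an unadjusted p under 0.05 (0.236% of all genes at 2-fold) and 0 with DESeq2 (0.047%). All 3 wounds with fibroblasts are upper-set libraries and 5 of the 7 without them lower-set, and within the upper set, which leaves replicates f and g without fibroblasts, the 10 values had a median of 0.01, with 5 positive and 5 negative. Keratinocyte markers summed to 12790 to 30760 CPM with fibroblasts and 40.2 to 62060 CPM without.

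Against WT wounds, a comparison that shares the 3 treated wounds with the one above, all 10 values were negative, from -0.45 for Grhl3 (SE 0.67, adjusted p = 0.767) to -1.35 for Grhl1 (SE 0.69, adjusted p = 0.274). Again 0 passed in edgeR's quasi-likelihood test (3 against 7), where 2.06% of all genes were called lower. There were 0 at an unadjusted p under 0.05 (7.97% of all genes at 2-fold) and 0 with DESeq2 (6.22%). Leaving only the 3 WT wounds of the same upper set changed this: 9 of the 10 were then called lower, where 11.2% of all genes were, with a median log2 fold change of -1.78. Klf4, at 262 to 404 CPM against 1176 to 1458 CPM, and Cebpa, at 178 to 213 CPM against 624 to 776 CPM, show the gap in those wounds. The 3 WT wounds had Ddx3y and the 3 treated ones Xist, and sex and treatment cannot be told apart in this subset. Leukocyte markers were called higher than in WT wounds for 5 of the 7 tested (3.77% of all genes).

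**Figure D3:**
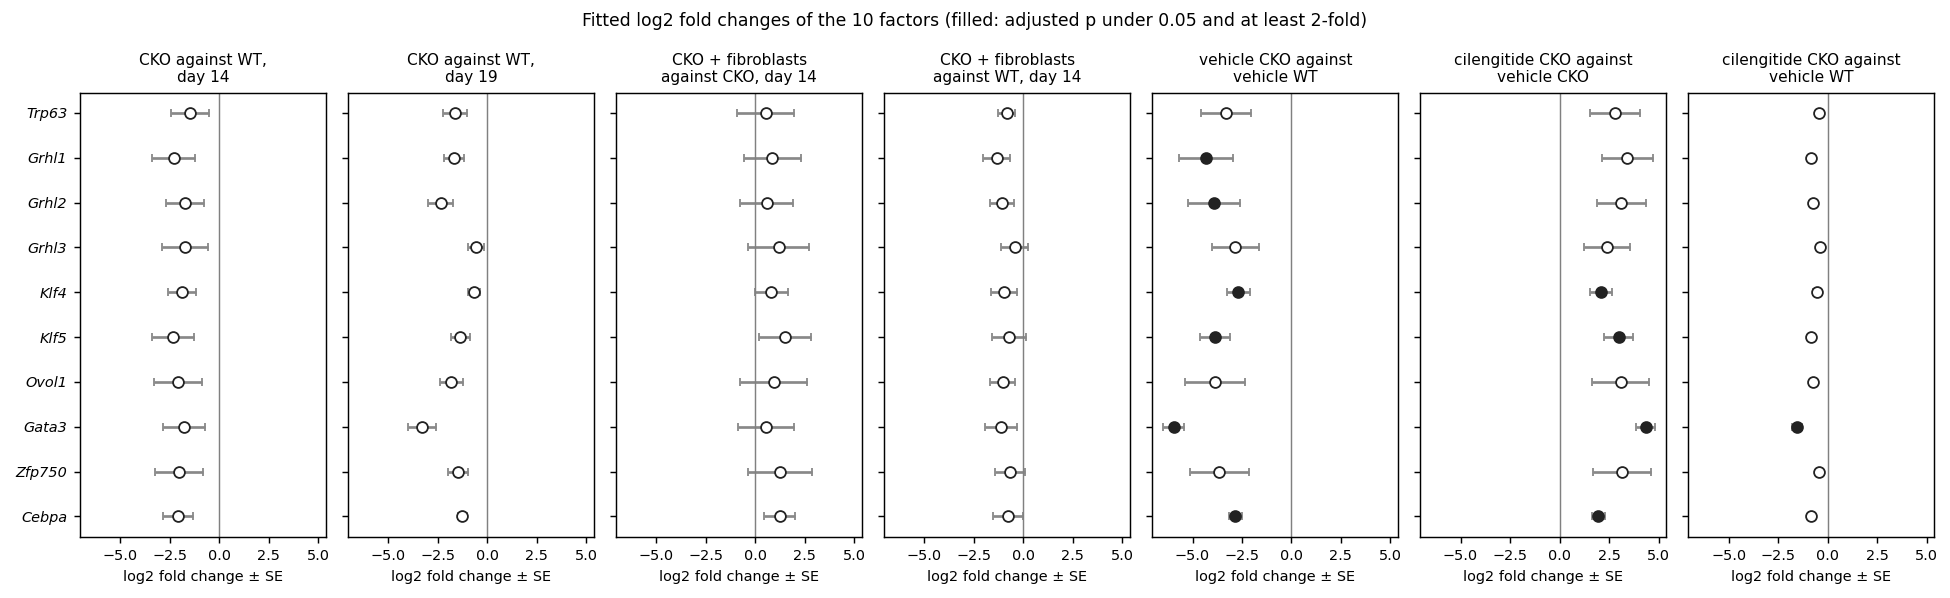
Fitted log2 fold changes ± SE of the 10 factors in the 7 comparisons; filled points passed an adjusted p of 0.05 and 2-fold. All values are negative in the comparisons with WT wounds and positive against Col5a1CKO wounds without fibroblasts or with vehicle, with 6, 4 and 1 filled points in the 3 comparisons of the second table and 0 elsewhere.

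In the second experiment the vehicle-treated wounds repeated the comparison of genotypes, and there 6 of the 10 factors fell in Col5a1CKO wounds, Gata3, Grhl1, Grhl2, Klf5, Cebpa and Klf4 (edgeR quasi-likelihood test, 4 against 4), where 13.4% of all genes tested were called lower. All 10 were lower in every Col5a1CKO wound than in any WT wound, which held for 27.7% of genes. Gata3 fell most. It was at 184, 139, 202 and 261 CPM in WT and 3.43, 1.80, 1.70 and 5.96 CPM in Col5a1CKO wounds 1 to 4, a log2 fold change of -5.96 (SE 0.51, adjusted p = 0.000456).

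Col5a1CKO wound 4 kept more of most factors than the other 3. Trp63 was at 343, 291, 334 and 341 CPM in WT and 24.9, 1.39, 1.92 and 107 CPM in Col5a1CKO wounds, and with a log2 fold change of -3.31 (SE 1.28) it missed the threshold (adjusted p = 0.0639). Ovol1 was at 129, 142, 152 and 142 CPM against 5.43, 0.0552, 0.62 and 33.5 CPM (log2 fold change -3.87, SE 1.51, adjusted p = 0.0648). Grhl3 was at 165, 134, 160 and 125 CPM against 10.9, 0.235, 11.0 and 61.8 CPM, and had the smallest value of the 4 that did not pass, -2.83 (SE 1.18, adjusted p = 0.0803). Zfp750, at 265, 235, 273 and 320 CPM against 12.0, 0.249, 1.18 and 76.0 CPM, was the other (adjusted p = 0.0739). Without Col5a1CKO wound 4 all 10 were called (15.1% of all genes), and DESeq2 called all 10 with it (12.9%). Without any 1 of the WT wounds, or without Col5a1CKO wound 1, 4 were called, Gata3, Klf5, Klf4 and Cebpa (11.6% to 13% of all genes).

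Of the factors that fell, Grhl1 was at 268, 242, 271 and 379 CPM in WT and 7.94, 0.594, 1.06 and 50.1 CPM in Col5a1CKO wounds (log2 fold change -4.32, SE 1.35, adjusted p = 0.0315). Grhl2 was at 51.9, 51.1, 59.2 and 72.2 CPM against 2.83, 0.069, 0.409 and 12.6 CPM (log2 fold change -3.92, SE 1.30, adjusted p = 0.0378). Klf5 was at 120, 98.1, 136 and 124 CPM against 6.42, 2.21, 2.78 and 22.2 CPM (log2 fold change -3.86, SE 0.76, adjusted p = 0.00518). Grhl1 and Grhl2 lost the call when any 1 of the WT wounds or Col5a1CKO wound 1 was left out, and Grhl2 also without Col5a1CKO wound 3. All 3 of these genes were lowest in Col5a1CKO wounds 2 and 3. The remaining pair was not. Cebpa was at 349, 299, 479 and 352 CPM against 38.9, 56.9, 32.5 and 82.1 CPM (log2 fold change -2.83, SE 0.33, adjusted p = 0.000905), and Klf4 at 790, 619, 848 and 914 CPM against 58.4, 69.1, 77.3 and 296 CPM (log2 fold change -2.69, SE 0.57, adjusted p = 0.00685).

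Keratinocyte markers summed to 63210 to 101300 CPM in WT and 1839, 69.8, 193 and 12310 CPM in Col5a1CKO wounds 1 to 4, and 4 of 6 were called lower. Hair follicle markers, of which 7 of 8 were called lower, summed to 83.6, 2401, 268 and 3190 CPM in WT wounds 1 to 4. Gata3 was at 184, 139, 202 and 261 CPM in the same WT wounds. In Col5a1CKO wounds the hair follicle markers summed to 11.4 to 26.1 CPM. Leukocyte markers, 7 of 7 tested called higher (17.5% of all genes), summed to 294 to 971 and 3659 to 7167 CPM. Fibroblast markers summed to 5656 to 33470 and 14370 to 62730 CPM, endothelial markers to 52.2 to 325 and 522 to 919 CPM, adipocyte markers to 238 to 408 and 440 to 1093 CPM, and T and innate lymphoid markers to 136 to 209 and 402 to 750 CPM. Of the 5 adipocyte markers tested 1 was called higher, Cebpb, which keratinocytes and myeloid cells also use, and Fabp4 had a log2 fold change of -0.14. Of the 7 T and innate lymphoid markers 3 were called higher, among them Thy1, which is also on the fibroblast list, and 2 lower, Tcf7 (log2 fold change -1.26) and Cd3e (-1.07). Their part in the fall of the factors was not tested.

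Cilengitide was given to ask whether blocking αv integrins changes Col5a1CKO wounds, and here the contrast with vehicle shares the 4 vehicle Col5a1CKO wounds with the comparison above. All 10 factors were higher in every cilengitide wound than in any vehicle Col5a1CKO wound, which held for 20.1% of genes. Of these, 4 rose past the threshold, Gata3, Klf5, Klf4 and Cebpa (edgeR quasi-likelihood test, 4 against 4), where 6.48% of all genes tested were called higher. Gata3 rose to 93.1, 61.9, 53.6 and 57.8 CPM in cilengitide wounds 1 to 4, a log2 fold change of 4.36 (SE 0.48, adjusted p = 0.003).

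Klf5 rose to 77.5, 68.6, 67.3 and 57.1 CPM (log2 fold change 2.99, SE 0.74, adjusted p = 0.0251). Klf4 rose to 615, 500, 625 and 432 CPM (log2 fold change 2.10, SE 0.56, adjusted p = 0.0302). Cebpa rose to 260, 186, 204 and 180 CPM (log2 fold change 1.97, SE 0.31, adjusted p = 0.00687). The log2 fold changes of the 6 that did not pass, all with a larger SE than those of the 4 that did, ran from 2.40 for Grhl3 (SE 1.17, adjusted p = 0.162) to 3.43 for Grhl1 (SE 1.29, adjusted p = 0.0861). Trp63 was at 226, 252, 262 and 226 CPM, Ovol1 at 103, 74.0, 74.9 and 88.3 CPM and Zfp750 at 231, 217, 196 and 166 CPM in cilengitide wounds. Grhl1 was at 183, 179, 154 and 136 CPM, Grhl2 at 35.7, 36.0, 32.9 and 35.1 CPM and Grhl3 at 123, 120, 122 and 84.1 CPM. Across the 4 cilengitide wounds the highest value was 1.09 times the lowest for Grhl2 and 1.74 times for Gata3, with the other factors between, while in the vehicle Col5a1CKO wounds Ovol1 ran from 0.0552 to 33.5 CPM. All 10 were called without vehicle Col5a1CKO wound 4 (10.6% of all genes) and by DESeq2 (7.64%). Gata3 and Cebpa alone were called without vehicle Col5a1CKO wound 3 (4.4%) or without cilengitide wound 1 (4.59%), and Klf4 also lost the call without vehicle Col5a1CKO wound 2 or cilengitide wound 2 or 3.

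Keratinocyte markers summed to 34790 to 70720 CPM in cilengitide wounds, 3 of 6 called higher than with vehicle, and hair follicle markers to 89.7 to 225 CPM, 5 of 7 tested called higher. Leukocyte markers summed to 1285 to 2101 CPM, and 6 of 7 were called lower than with vehicle (6.59% of all genes). What these shifts contribute to the factors was not tested.

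Cilengitide wounds held less of most factors than vehicle WT wounds, which they share with the genotype comparison. The log2 fold changes were all negative, from -0.37 for Grhl3 (SE 0.15, adjusted p = 0.0975) to -1.56 for Gata3 (SE 0.25, adjusted p = 0.0193). Gata3 was the 1 factor past 2-fold (edgeR quasi-likelihood test, 4 against 4), where 3.43% of all genes were called lower. With no minimum fold 7 passed, all but Klf4, Zfp750 and Grhl3, against 11% of all genes. In 9 of 10, all but Klf4, every cilengitide wound was below every WT wound, as for 17.2% of genes. For Klf4 the groups met at 625 CPM in cilengitide wound 3 and 619 CPM in WT wound 2. The Gata3 call did not hold without cilengitide wound 2, 3 or 4, and in each of these fits 0% of all genes were called lower. Leukocyte markers were called higher in 5 of 7 (5.15% of all genes).

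Set against Krt14 of the same wound, a basal keratin, the factors were separate between cilengitide and vehicle WT wounds in all 10 cases. This was not so between genotypes. In vehicle wounds only Ovol1 and Zfp750 were separate relative to Krt14, both lower with Col5a1CKO. At day 19 Grhl1, Grhl2, Ovol1, Gata3, Zfp750 and Cebpa were lower, and at day 14 every factor overlapped. All 10 ratios share Krt14 as denominator, and the share of all genes with separate ratios to Krt14 or Trp63 was not computed. The log2 ratio of Trp63 to Krt14 was -6.30 to -5.75 in cilengitide and -5.47 to -3.99 in WT wounds, and that of Gata3 -8.33 to -7.58 and -6.53 to -4.38. Krt14 itself was at 12120 to 19870 CPM with cilengitide and 5429 to 13910 CPM in WT wounds. Set against Trp63 only Gata3 was separate, at -2.29 to -1.28 with cilengitide and -1.06 to -0.39 in WT wounds. Hair follicle markers summed to 89.7 to 225 CPM with cilengitide and 83.6 to 3190 CPM in WT wounds, and 8 of 8 had negative log2 fold changes, of which 0 were called.

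**Figure D4:**
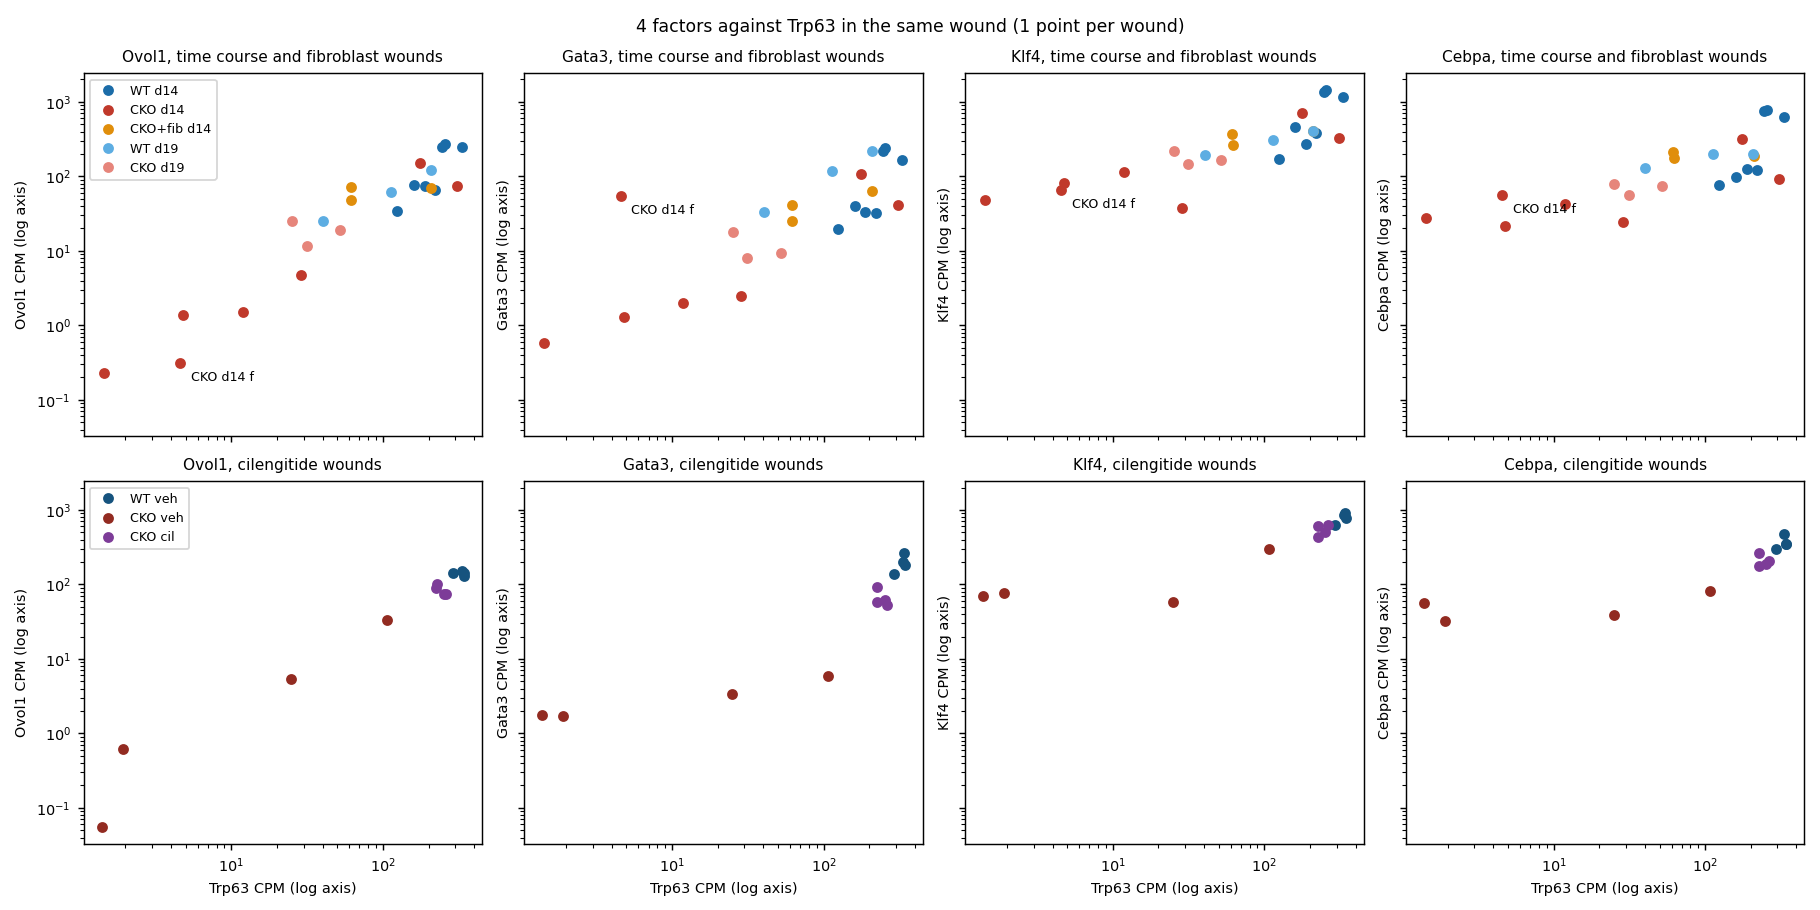
CPM of Ovol1, Gata3, Klf4 and Cebpa against Trp63 of the same wound, both on log axes, with the first table above and the second below. Ovol1 follows Trp63 down to 0.0552 CPM, Klf4 and Cebpa stay at 21.9 CPM or more, and Col5a1CKO replicate f of day 14 (CKO d14 f) has more Gata3 than other wounds with as little Trp63.

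Across wounds the 10 factors went up and down together. Over the 45 pairs, Pearson's r of log2(CPM + 1) was 0.761 to 0.986 with a median of 0.923 in the 23 wounds of the first table, and 0.819 to 0.999 with a median of 0.959 in the 12 wounds of the second. These points share libraries and group differences, and r is given as a description. The closest pair in the first table was Grhl1 and Zfp750 (0.986), and the least close Trp63 and Cebpa (0.761). In the second the ends were Grhl1 and Grhl2 (0.999) and Grhl3 and Cebpa (0.819).

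Klf4 and Cebpa parted from the others at the low end. In the 5 low Col5a1CKO wounds of day 14 Klf4 stayed at 37.5 to 115 CPM and Cebpa at 21.9 to 56.9 CPM, where Ovol1 was at 0.23 to 4.68 CPM. The log2 ratio of Cebpa to Trp63 ran from -1.76 to 4.24 in Col5a1CKO and -0.87 to 1.63 in WT wounds of day 14. With vehicle it ran from -0.38 to 5.34 in Col5a1CKO and from 0.03 to 0.52 in WT wounds. Its highest values were thus in Col5a1CKO wounds, while the genotypes overlapped in both comparisons. Ovol1 and Zfp750 went the other way. In vehicle wounds their log2 ratios to Trp63 were -4.43 to -1.60 and -2.44 to -0.49 in Col5a1CKO and -1.41 to -1.04 and -0.37 to -0.09 in WT, separate for both, and Grhl1, at -1.65 to -0.86 against -0.35 to 0.15, was separate as well. At day 14 the ratios of Ovol1, Zfp750 and Grhl1 to Trp63 overlapped between genotypes. How many of all genes had separate ratios to Trp63 was not computed.

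The genes outside the 10 whose log2(CPM + 1) was most like each factor were named by Pearson's r, the 3 closest for each. Over the 23 wounds of the first table and 12070 genes averaging 5 CPM or more, these included Ckmt1 among the 3 closest to Trp63 (r = 0.975), Esrp2 among the 3 closest to Grhl1 (0.979) and to Zfp750 (0.990), and Pkp3, a desmosomal plakophilin, for Zfp750 (0.991). Tfap2a was among the 3 closest to Grhl2 (0.961), Sfn and Alox12b were among those for Grhl3 (0.983 and 0.982), and Nipal4 for Ovol1 (0.982). Epcam, a cell surface protein of epithelia, was closest to Gata3 (0.966), Fam83h to Klf5 (0.984), Ankrd35 to Klf4 (0.974) and Gltp to Cebpa (0.979). In the 12 wounds of the second table and 11637 genes the closest were Pkp1 for Trp63 (0.998), Dsp for Zfp750 (0.999) and Esrp1 for Grhl1 (0.999), while for Cebpa they were the ribosomal protein genes Rpl32, Rps26 and Rpl14 (0.998, 0.994 and 0.994).

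Other genes of the same programme, listed by role, were counted in the same fits. Of 16 other epidermal transcription factors, 5 fell in vehicle Col5a1CKO wounds, with Pou2f3 (log2 fold change -7.88, adjusted p = 0.00125) and Dlx3 (-5.84, adjusted p = 0.0153) lowest. The 1 that rose was Cebpb (2.07, adjusted p = 0.0363). Of all genes tested 13.4% were called lower there and 17.5% higher, shares that hold beside the other lists too. At day 14 and day 19 edgeR's quasi-likelihood test called 0 of the 15 tested (2.71% and 0% of all genes lower). Of the 15, 13 and 11 had negative log2 fold changes. At an unadjusted p under 0.05, in either direction and with no minimum fold, there were 3 and 8. Of all genes 13.2% were lower and 14.2% higher at that limit at day 14, and 12.3% and 11.8% at day 19. With cilengitide 4 of the 16 rose, Pou2f3 (6.50, adjusted p = 0.00612) and Ovol2 (4.21, adjusted p = 0.0122) most. Of all genes 6.48% were called higher with cilengitide, which holds beside the other lists too. Of 8 basal keratinocyte genes, 4 fell in vehicle Col5a1CKO wounds, among them Krt15 (-7.01, adjusted p = 0.00314), and 3 rose with cilengitide. Of 11 tested differentiation genes 6 fell, Lor (-8.48, adjusted p = 0.00829) and Krt10 (-8.39, adjusted p = 0.00527) most, and 4 rose with cilengitide, Lor by 6.66 (adjusted p = 0.03). Of 8 general epithelial genes 5 fell, Epcam most (-5.45, adjusted p = 0.00191), and 3 rose with cilengitide.

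The medians of these lists can be read beside those of the 10 factors. In vehicle wounds the median log2 fold change was -3.75 for the 10 factors, -2.09 for the other epidermal transcription factors, -2.76 for the basal genes, -4.53 for the differentiation genes and -3.66 for the general epithelial genes, where all genes tested had a median of 0.02. With cilengitide the medians were 3.04, 2.06, 2.59, 3.37 and 3.21 in the same order, and -0.06 for all genes. At day 14 Ivl (-3.78, adjusted p = 0.0475) and Fras1 (-2.68, adjusted p = 0.0301) were called, 1 differentiation and 1 basal gene (2.71% of all genes lower). Against WT wounds the fibroblast-treated wounds had 3 differentiation genes called lower (2.06% of all genes). Ivl (-2.77, adjusted p = 0.00261) and Dsg1a (-2.61, adjusted p = 0.00162) were among them.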

How the data were processed

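RNA-seq of skin wounds was analysed from 2 tables of whole-number counts per gene that the authors deposited, 1 for fibroblast and time-course wounds and 1 for cilengitide wounds. The submitters' processing notes name HISAT2 and the mouse build mm9 (NCBI37), and the counting tool's strand setting is not given in the sources used here. Samples were grouped by their labels, and every column had a sample (0 without). Of duplicated symbols the row with the most counts was kept. Rows with no gene symbol held 0.0492% of counts in the first table and 5.91e-05% in the second and were left out. The 10 genes and all lists were chosen with earlier results of these data known.

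Each comparison was fitted across all genes with edgeR 4.0.16 (R 4.3.3), using filterByExpr at a minimum count of 10, TMM scaling and the quasi-likelihood test, with Benjamini-Hochberg adjustment over all genes tested. Only the groups compared entered each fit, without a replicate term. A gene was called at an adjusted p under 0.05 and at least 2-fold. Scripts were tested on simulated data. Alternatives were DESeq2 1.42.0, other scalings, filters, fold limits, a fit of all groups, a replicate block, the library set as a covariate or as a subset, summed rows and leaving out wounds. Leaving out Col5a1CKO replicate f of day 14 was chosen after seeing the data. Every one of the 10 genes is named, with the ends of each comparison in full, the 3 genes most like each by Pearson's r were ranked, and list examples are the largest called changes. Log2 ratios used CPM + 0.01. RPKM used the transcript lengths and all-row totals of the first table. Promoter letters were searched with Python 3.11.15 in 250 bases before GENCODE vM1 starts, merged within 100 bases. Some matches of the sequence search and 1 gene of the likeness ranking are not reported here.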

Additional observations from a re-analysis of the deposited data

Results flagged for a closer look

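Of 50 groups of member values with 4 to 10 wounds, 8 held 1 wound far from the rest by Dixon's criterion at the 95% level. The nominal share is 1 in 20, but the factors went up and down together and CPM was not on a log scale. The 8 therefore cannot be set against that share. In Col5a1CKO replicate g of day 14 Klf5 (88.1 CPM, next highest 30.3), Zfp750 (236 CPM, next 101) and Cebpa (316 CPM, next 91.2) stood above the group. In vehicle Col5a1CKO wound 4 Grhl1 (50.1 CPM, next 7.94), Klf4 (296 CPM, next 77.3), Ovol1 (33.5 CPM, next 5.43) and Zfp750 (76.0 CPM, next 12.0) stood above the other 3. These wounds also had the highest keratinocyte marker sums of their groups, 62060 and 12310 CPM. In cilengitide wound 4 Grhl3 was lowest, at 84.1 CPM against 120 CPM in the next.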

How the results depend on the processing

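Of 107 alternative counts of called members 86 were within 1.5 times the reported count, and of 354 alternative values of the log2 fold changes given with their SE at the ends of each comparison or for called members 309 kept direction and side of the threshold, 22 lost and 21 gained the call, and 2 reversed. At day 14, where 0 of the 10 were called, DESeq2, a fit of all groups and the replicate block each called 2 (4.85%, 5.64% and 3.95% of all genes called lower). The library set covariate called 1 (3.88%). At day 19 DESeq2 called 5 (4.13% of all genes lower), and leaving out wounds gave 0 to 6 (0% to 3.87%). For the fibroblast wounds against Col5a1CKO the replicate block called 9 (9.33% of all genes higher), and leaving out wounds gave 0 to 0 (0%). Against WT the library set covariate and the upper set alone each called 9 (6.67% and 11.2% of all genes lower). For vehicle wounds DESeq2 and a fit of all groups each called 10 against 6 (12.9% and 14.1% of all genes lower), and leaving out wounds gave 4 to 10 (11.6% to 15.1%). For cilengitide against vehicle Col5a1CKO DESeq2 called 10 against 4 (7.64% of all genes higher), and leaving out wounds gave 2 to 10 (4.4% to 10.6%). For cilengitide against WT no minimum fold gave 7 against 1 (11% of all genes lower), 3-fold gave 0 (1.39%), and leaving out wounds gave 0 to 1 (0% to 3.93%). Those reversals were Trp63 with fibroblasts against Col5a1CKO, which ran from -0.32 (without fibroblast replicate b) to 0.81 as wounds were left out, and Grhl3 with fibroblasts against WT, 1.01 with the replicate block. Over all 10 members, signs changed further in the fibroblast comparisons: against Col5a1CKO 5 of 10 were negative with the library set covariate (median -0.07) and 5 of 10 in the upper set alone, and against WT 7 of 10 were positive with the replicate block (median 0.33). In the interaction, 7 of 10 positive as reported, 4 were positive with library size only. The causes were not tested. Library size alone as the scale moved the median log2 fold change of all genes by 0.17 at day 14, -0.38 at day 19, 0.14 for fibroblast wounds against WT and -0.53 in the interaction. The 3 genes most like a member were not the same 3 with Spearman's rho for any of the 10 in either table.

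Whether letters pair wounds was checked by correlating deviations from the group means. The mean r of same-letter wounds was 0.139 at day 14 (lowest -0.397), -0.369 at day 19, 0.088 for fibroblast wounds against Col5a1CKO and 0.187 against WT (lowest 0.058), so letters were not taken as pairs, and 1 of 7 wounds at day 14 correlated best with its own letter. No paired analysis was possible for the cilengitide wounds because their labels carry no shared replicate numbers, and the numbers 1 to 4 used here only name wounds in accession order. Depth limits readings such as 0.0552 CPM of Ovol1, which is 4 counts.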
